A study of Arabidopsis thaliana with 4 samples.

Results

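Glycosyl and glutathione transferases were examined in roots of Arabidopsis thaliana nai1-1, a mutant deficient in ER bodies, against roots of the wild type Col-0. The members were all probes with 1 named gene whose symbol or RefSeq synonym is a UDP-glycosyltransferase name (UGT, 2 digits, a letter and a number) or a glutathione S-transferase name of the U, F, Z, T or L class. UGT74B1 was left out. The rule found 61 probes for 61 genes, of 9253 genes with a named probe (9335 probes) and 22575 probes in all. They comprise 48 UGT and 13 GST genes, where the same rule finds 63 UGT and 49 GST genes in the RefSeq gene table. The GST genes are 10 of 28 tau class genes (GSTU), 2 of 13 phi class genes (GSTF) and 1 of 3 lambda class genes (GSTL), and no zeta or theta class gene had a named probe. The members not measured under a name were not analysed here.

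Each of 4 two-colour Agilent arrays carried nai1-1 and Col-0 RNA. Arrays 2 and 3 held nai1-1 in Cy5, and the dyes were exchanged on arrays 1 and 4. Plants of both genotypes stood on the same plate, at 22 °C under continuous light, on MS medium gelled with 0.5% gellan gum and holding 1% sucrose, without treatment. Roots were taken at an age of 20 days and RNA of 3 plants was pooled per genotype. The labels give 1 mutant allele and do not say whether the arrays hold separate plant pools, so the p-values cover only array-to-array spread, possibly technical in origin.

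Both families attach a group to a small molecule. UGTs move a sugar from a UDP-sugar onto hormones, flavonoids, lignin precursors, sterols and foreign compounds, which usually inactivates the acceptor or makes it soluble for storage in the vacuole. GSTs couple the tripeptide glutathione to electrophilic compounds, and some act instead as carriers or as glutathione-dependent reductases. Many genes of both families are induced by herbicides, oxylipins and other stress signals, and many lie in tandem rows of close relatives.

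All values are given as log2 of nai1-1 over Col-0, so that 1 unit is a 2-fold difference and a negative value means less transcript in nai1-1. The labels give the dyes, and the sign further assumes that the deposited ratio is Cy5 over Cy3, as the extraction software writes it. The files hold ratios without intensities, so neither transcript levels nor detection could be judged, and the root label could not be checked against marker levels. Fewer cells of a type and less RNA per cell cannot be told apart in whole roots. Over all named probes the array medians lay within 0.024 of 0, with median absolute deviations of 0.26, 0.22, 0.16 and 0.13 on arrays 1 to 4. NAI1, the mutated gene, had log2 ratios of -0.77, -1.21, -0.21 and -0.60, and the position of its probe relative to the lesion is unknown. Its mean of -0.70 did not pass the threshold used below (limma adjusted p = 0.259).

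The question was whether these enzyme genes differed between nai1-1 and Col-0 roots. None of the 48 UGT and 13 GST genes passed the threshold (limma, Benjamini-Hochberg adjusted p of 0.05 over all probes), where 0.496% of all probes and 0.589% of named probes did. The adjusted p-values of the members ran from 0.221 upward. At an unadjusted p under 0.05 there were 10 members, or 16.4%, against 14.9% of named probes. Of these 5 were higher in nai1-1, where 6.51% of named probes were, and 5 lower, where 8.36% were. Leaving out probes with an exact 0 on any array, none of which is a member, raised the calls to 3.61% of all probes and 4.13% of named probes but added no member, and the lowest adjusted p was then 0.0715, for GSTU25. The mean ratios ran from -0.43 to 0.70 and only GSTU25 was at least 0.5 units from 0, against 7.3% of named probes.

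The precision of single ratios limits what the absence of calls can show. The standard error (SE) of a mean ratio is the moderated one of the limma fit, from which a difference between the dyes is removed. It is therefore not the plain SE of the 4 ratios. Its median was 0.10 over the members, and a 95% interval spans 2.71 SE on either side. For 60 of the 61 members the interval lay within 1 log2 unit of 0, against 93.9% of named probes. For 37 of the 61 members it lay within 0.5 units, as it did for 6027 of the 9335 named probes. The exception to the first count was GSTU25, with an interval from 0.24 to 1.15. These intervals are not adjusted for the number of genes and assume that the 4 arrays are independent.

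The highest members of either family were tau and phi class GSTs, and so were the lowest GSTs. Of the 13 measured GSTs, 10 are of the tau and 2 of the phi class. Both classes serve mainly in conjugation of foreign and stress-derived compounds. GSTU25 (AT1G17180), an enzyme known to conjugate the explosive TNT, had log2 ratios of 1.11, 0.90, 0.40 and 0.39 on arrays 1 to 4. It was above 0 on every array, with higher values on arrays 1 and 2 than on arrays 3 and 4. Its mean was 0.70 ± 0.17 (SE, n = 4), which is 1.62-fold, and did not pass the threshold (limma adjusted p = 0.221). It did pass when the fit was limited to probes with 1 named gene (limma adjusted p = 0.0325), and it did not when arrays 1 and 2, and arrays 3 and 4, were averaged as 2 replicates (limma adjusted p = 0.236 without exact 0 values).

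GSTU23 (AT1G78320), also of the tau class, had ratios of 0.46, 0.23, 0.75 and 0.48, with a mean of 0.48 ± 0.12 (limma adjusted p = 0.225). GSTF4 (AT1G02950), of the phi class, had 0.26, 0.36, 0.70 and 0.21, with a mean of 0.38 ± 0.09 (limma adjusted p = 0.230). GSTU20 (AT1G78370), an enzyme that binds the jasmonate-conjugating protein FIN219 (JAR1), had 0.28, 0.22, 0.30 and 0.07. All 3 were above 0 on every array, and for GSTU23 and GSTF4 array 3 was the highest. GSTU15 (AT1G59670) had 0.53 on array 1 and lay between -0.10 and 0.07 on the other arrays, so its mean of 0.12 rests on array 1, and the estimate of the fit with a dye term was -0.024 without that array.

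At the low end of the family, GSTF3 (AT2G02930), a phi class enzyme, had ratios of -0.03, -0.74, -0.24 and -0.24, with a mean of -0.31 ± 0.12 (limma adjusted p = 0.405). It was the only GST below 0 on all 4 arrays. GSTU26 (AT1G17190) had 0.27, -0.12, -0.51 and -0.69, so array 1 had the opposite sign to the rest, and its mean was -0.26 ± 0.19. GSTU16, GSTU27 and GSTU21 had means of -0.17, -0.13 and -0.11 and were each above 0 on 1 array. The remaining GSTs lay close to 0: GSTL3, of the lambda class of glutathione-dependent reductases, had a mean of 0.02, GSTU18 of -0.02 and GSTU22 of -0.09. In all, 4 of 13 GSTs were above 0 on every array and 1 below, or 38.5% with 1 sign, against 25.0% of named probes.

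**Figure D1:**
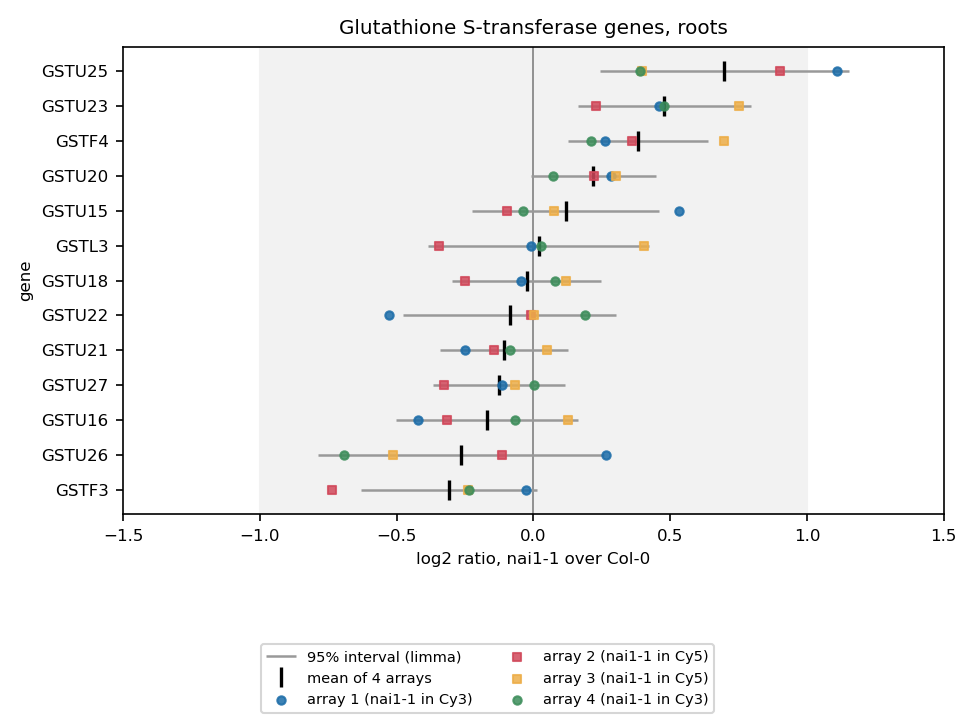
Log2 ratio of nai1-1 over Col-0 (x axis) for the 13 GST genes (y axis, sorted by mean). Coloured points are single arrays (circles: nai1-1 in Cy3, squares: nai1-1 in Cy5), black ticks are means of 4 arrays, grey lines are 95% limma intervals and the shaded band marks 1 log2 unit on either side of 0. GSTU25 has the highest mean, 0.70, and GSTF3 the lowest, -0.31.

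Among the UGTs that act on hormones, 3 measured genes were grouped here for glucosylation of abscisic acid, and none of them passed. UGT71B6 (AT3G21780) had ratios of -0.21, -0.38, -0.23 and -0.61, below 0 on every array, with a mean of -0.36 ± 0.11 (SE, n = 4, limma adjusted p = 0.291). UGT71C5 (AT1G07240) had -0.21, -0.37, -0.09 and -0.24, also below 0 on every array, with a mean of -0.23. UGT71B8 had a mean of -0.17 and was above 0 on array 2, at 0.05. The grouping of UGTs by acceptor was made with their values known. It need not hold every member that acts on abscisic acid. Over all UGTs 26 of 48 means were below 0.

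The genes for salicylate and related benzoates were mixed. UGT74F1 (AT2G43840), which glucosylates salicylic acid, had -0.09, 0.44, 0.51 and 0.18, higher on both arrays with nai1-1 in Cy5 than on both with nai1-1 in Cy3, and a mean of 0.26 ± 0.09 (limma adjusted p = 0.361). UGT76D1 (AT2G26480), which acts on dihydroxybenzoic acids derived from salicylate, had -0.47, -0.39, -0.36 and -0.20, with a mean of -0.35 ± 0.09 (limma adjusted p = 0.233, the lowest of any UGT). It was below 0 on all 4 arrays. UGT76B1, which glucosylates isoleucic acid and salicylic acid, had a mean of -0.11 and a range from -0.39 to 0.12.

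Of the auxin genes, UGT74D1 (AT2G31750), which glucosylates the auxin catabolite oxindole-3-acetic acid, was the highest UGT, at 0.48, 0.29, 0.41 and 0.14. It was the only UGT above 0 on every array, with a mean of 0.33 ± 0.10 (SE, n = 4, limma adjusted p = 0.291). UGT84B1, which makes the glucose ester of indole-3-acetic acid, had a mean of -0.14, between -0.30 and 0.09. The cytokinin N-glucosyltransferases UGT76C1 and UGT76C2 had means of -0.0037 and -0.12. Both were lowest on array 1, at -0.55 and -0.43, and both were at 0.12 on array 4.

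The 6 members grouped here as flavonoid genes had means between -0.04 and 0.24. UGT78D1 (AT1G30530), the flavonol 3-O-rhamnosyltransferase, had -0.03, 0.10, 0.57 and 0.33, with a mean of 0.24 ± 0.13 (limma adjusted p = 0.511). UGT78D2, the flavonoid 3-O-glucosyltransferase, had a mean of 0.03 and a range from -0.12 to 0.32, and UGT78D3, which adds arabinose to flavonols, had 0.59, 0.18, -0.13 and 0.14. UGT79B1 (AT5G54060), which adds xylose to anthocyanins, had -0.28, -0.31, 0.56 and 0.50, so arrays 1 and 2 lay below 0 and arrays 3 and 4 above. It was the only one of the 6 with this division, which was present in 5 of the 61 members and in 9.08% of named probes. UGT73B1, outside these 6 but in a row of relatives also tied to flavonoid metabolism, had it too. Its ratios were -0.11, -0.02, 0.25 and 0.08, and its relatives UGT73B2 and UGT73B3 did not have the division. The remaining members with the division were 3 of the 13 GSTs, namely GSTL3, GSTU18 and GSTU22, so it was not particular to flavonoid genes. Of the 2 measured genes of flavonoid synthesis, which are no members, DFR (dihydroflavonol 4-reductase) had the division, with -0.42, -0.61, 0.83 and 0.54, and the anthocyanidin reductase gene BAN did not, with -0.17, -0.25, 0.06 and -0.24. The others of the 6, UGT73C6 and UGT79B6, had means of 0.11 and -0.04.

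The genes for lignin precursors stood low on array 2, as did many other UGTs. UGT72E2 (AT5G66690), which glucosylates monolignols, had 0.40, -1.29, 0.10 and 0.23, UGT72E3 had 0.40, -0.52, 0.13 and 0.30, and UGT72E1 had -0.14, -0.88, -0.18 and 0.13. UGT72B1, which acts on monolignols and on chlorinated phenols and anilines, had 0.32, -0.25, 0.39 and 0.24. Array 2 was thus the lowest for all 4 genes, and the means lay between -0.27 and 0.17. It was also the lowest for 22 of all 48 UGTs, against 28.1% of named probes. Among other subfamilies this held for 7 of 9 UGT73 genes but for 2 of 7 UGT76 genes. UGT72B3 (AT1G01420), a close relative of UGT72B1, had -0.81, -0.38, -0.15 and -0.09 and was below 0 on every array (mean -0.35 ± 0.15, limma adjusted p = 0.443). The hydroxycinnamate ester genes UGT84A3 and UGT84A4 had means of -0.15 and -0.14.

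The lowest UGT was UGT85A4 (AT1G78270), at -0.03, -0.46, -0.53 and -0.69, with a mean of -0.43 ± 0.14 (limma adjusted p = 0.320). It was below 0 on every array, though barely so on array 1. UGT73B5 (AT2G15480), a gene of the defence and redox response, came next at -0.36 ± 0.22 and rests on array 2, with -0.35, -1.09, 0.06 and -0.07. Its relative UGT73B3, of the same response, had a mean of 0.06 and a range from -0.23 to 0.37. UGT88A1 (AT3G16520) was the second highest UGT, at 0.28, -0.21, 0.40 and 0.59, with a mean of 0.27 ± 0.14. UGT71C1 had a mean of -0.10, UGT87A2, a gene tied to flowering time, one of 0.03, and the sterol glucosyltransferases UGT80A2 and UGT80B1 of 0.04 and 0.01. UGT85A2 and UGT89B1 had unadjusted p-values under 0.05 (limma adjusted p = 0.347 and 0.289) with means of -0.28 and -0.32, and each was above 0 on 1 array. In all, 1 of 48 UGTs was above 0 on every array and 7 below, or 16.7% with 1 sign. Named probes were above 0 on every array in 12.9% of cases and below in 12.2%.

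**Figure D2:**
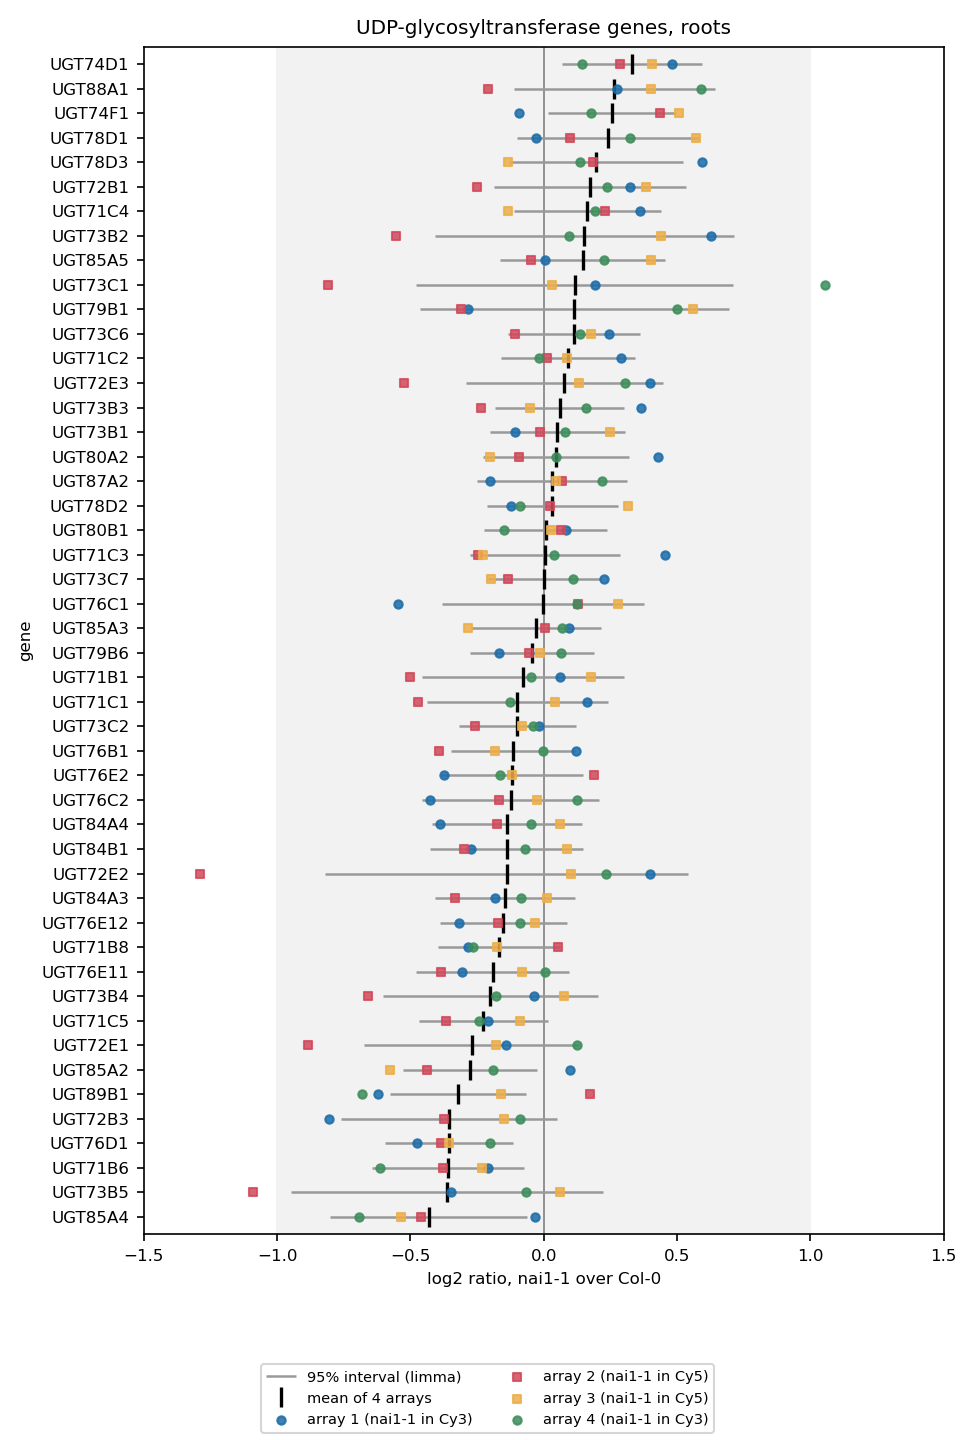
Log2 ratio of nai1-1 over Col-0 (x axis) for the 48 UGT genes (y axis, sorted by mean), drawn with the same symbols: coloured points are single arrays, black ticks means of 4 arrays, grey lines 95% limma intervals and the shaded band 1 log2 unit on either side of 0. Every interval lies within the band, and red squares (array 2) are the lowest point of 22 genes.

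The families were then set against each other. The median of the mean ratios was -0.04 over UGT genes and -0.02 over GST genes, a difference of -0.01, with 0.02 over all named probes. By array the UGT medians were -0.03, -0.22, 0.02 and 0.04, and the GST medians -0.01, -0.12, 0.12 and 0.03. The UGT minus GST difference was therefore -0.02, -0.11, -0.10 and 0.01 on arrays 1 to 4, with a mean of -0.05 ± 0.06 (SD, n = 4), no larger than the spread between arrays. No p-value is given for it, because the members were chosen with earlier results known. The means over genes differed more than the medians, -0.05 for UGTs and 0.06 for GSTs, and without GSTU25 the GST mean was 0.01. The SD between genes was 0.19 for UGT genes and 0.30 for GST genes, or 0.25 for GST genes without GSTU25, and this difference was not tested. Over named probes this SD was 0.32, with mean ratios from -4.99 to 1.63. The lower and upper quartiles were -0.16 and 0.10 for UGT genes and -0.13 and 0.22 for GST genes. Over named probes they were -0.09 and 0.14. By quartiles, neither family was thus narrower than the named probes, although both had the smaller SD.

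**Figure D3:**
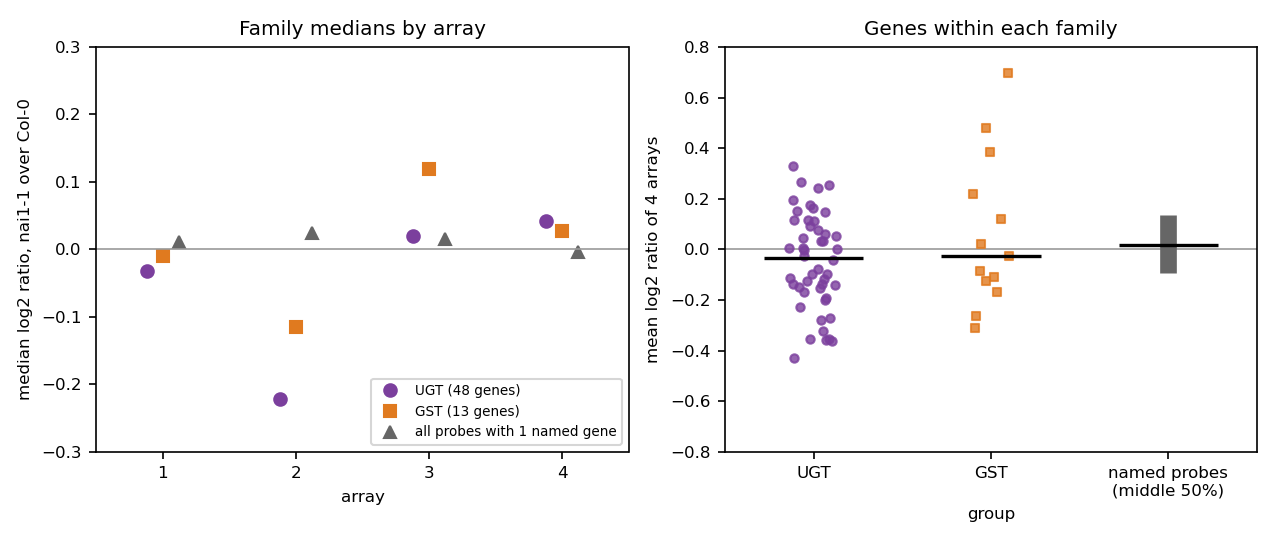
Left, the median log2 ratio of nai1-1 over Col-0 on each array (x axis) for UGT genes, GST genes and all named probes. Right, mean ratios of single genes (points; horizontal jitter carries no meaning) with the family median as a black line, beside the middle 50% of named probes, from -0.09 to 0.14 (bar). Both families are lowest on array 2, and the 3 highest points are GSTs.

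Array 2 was low for both families. It was the lowest of the 4 arrays for 28 of the 61 members, or 45.9%, against 28.1% of named probes, whose median on array 2 was 0.02. The list of shoot photosynthesis genes, used as markers of another tissue, was also low there: its 5 measured genes of 27 had medians of 0.02, -0.48, -0.14 and 0.14 on arrays 1 to 4, and none of them passed the threshold. Any part of shoot tissue in the array 2 values was not tested. Across the 61 members array 2 correlated with array 4 at r = 0.08, where r was 0.54 over named probes, and arrays 3 and 4 correlated at 0.59 over members and 0.75 over named probes. These correlations are across genes that share the arrays and carry no p-value. They also cover unlike ranges, since 7.3% of named probes but only GSTU25 among the members had a mean at least 0.5 units from 0. Without array 2 the UGT median was 0.004 and the GST median 0.05.

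The orientations lay on opposite sides of 0 for 5 of 48 UGTs and 0 of 13 GSTs, against 12.6% of named probes. UGT73C1 (AT2G36750), a glucosyltransferase active on cytokinins, was not among them but had the largest dye effect of any member. It had 0.19 and 1.05 on arrays 1 and 4 with nai1-1 in Cy3, and -0.81 and 0.03 on arrays 2 and 3 with nai1-1 in Cy5. Its mean of 0.12 ± 0.22 thus joins opposite signs at the 2 extremes. This SE leaves out the dye effect, and the SD over the 4 arrays was 0.76. Its dye effect (Cy5 over Cy3) was -0.51, followed by UGT72E2 at -0.45. The median size of this effect was 0.10 over UGTs and 0.06 over GSTs, against 0.09 over named probes.

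Tandem neighbours were compared because close relatives often lie side by side. By RefSeq gene order, 31 members fell into 13 clusters, 11 of UGTs and 2 of GSTs, in which at most 1 gene separates consecutive members. They give 18 neighbouring pairs. Means of the pair had the same sign in 10 pairs, and the size of the difference had a median of 0.16 over the 14 UGT pairs, where it was 0.19 over all 1128 pairs of UGT genes. Over the 4 GST pairs it was 0.45, and 0.28 over all 78 pairs of GST genes. No probe sequences were used, and cross-hybridisation between close relatives was not assessed.

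The widest gap lay between GSTU25 and GSTU26, which are direct neighbours. GSTU25 exceeded GSTU26 by 0.84, 1.02, 0.91 and 1.08 on arrays 1 to 4, a mean difference of 0.96 ± 0.11 (SD, n = 4). The ratios of both genes were higher on arrays 1 and 2 than on arrays 3 and 4, GSTU25 being at 1.11 and GSTU26 at 0.27 on array 1, and at 0.39 and -0.69 on array 4, so their difference had the smallest SD of the 18 pairs. The exact sign-flip permutation test gave a two-sided p of 0.125, the smallest that 4 arrays allow (0.5625 adjusted over 18 pairs), so no pair could reach 0.05.

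In the row of the measured genes GSTU23, GSTU22, GSTU21 and GSTU20, the first and last were above 0 on every array and the inner ones were not. Relatives beyond them without a named probe would not appear in this row. GSTU23 exceeded GSTU22 by 0.56 ± 0.36 and GSTU21 was below GSTU20, with a difference of -0.33 ± 0.16 (SD, n = 4), each with 1 sign on all 4 arrays (exact permutation p = 0.125). The fourth such pair was UGT71C2 and UGT71C1, with a difference of 0.19 ± 0.20. Of the 14 UGT pairs, 13 had a mean difference smaller than its SD over arrays: for example, UGT84A3 and UGT84A4 differed by -0.01 ± 0.15, and UGT76E12 and UGT76E11 by 0.04 ± 0.13. In the row of UGT73B3, UGT73B2 and UGT73B1, relatives tied to defence and flavonoid metabolism, the means were 0.06, 0.15 and 0.05.

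**Figure D4:**
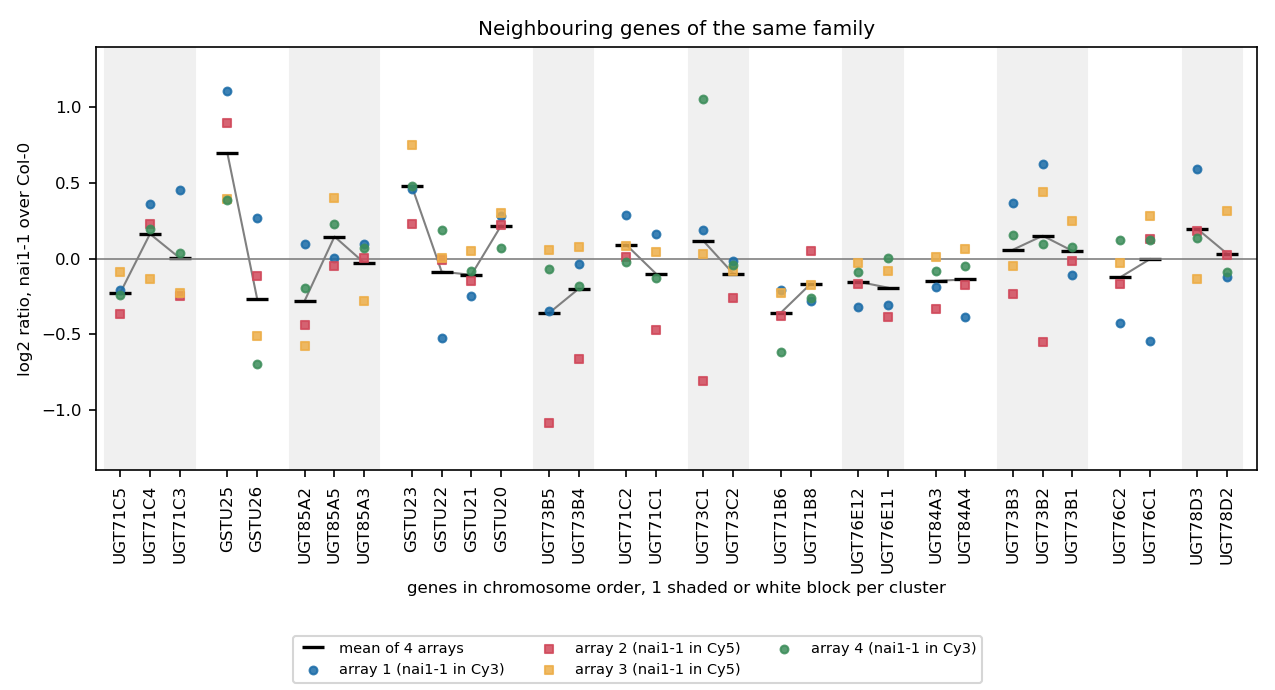
Log2 ratio of nai1-1 over Col-0 (y axis) for 31 members in 13 clusters of neighbouring genes (x axis, chromosome order, 1 block per cluster). Coloured points are single arrays, black bars means of 4 arrays, and grey lines join neighbours. GSTU25 and GSTU26 are 0.96 apart, while 13 of 14 UGT pairs differ by less than the SD of the difference over arrays.

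Genes that supply or receive these reactions were measured only in part, and none passed the threshold. Of 16 genes for glutathione synthesis and turnover 3 had a named probe: the glutathione reductases GR1, at 0.22 ± 0.11, and GR2, at -0.06 ± 0.19, and TCHQD, a GST of another class, at 0.02 ± 0.09 (SE, n = 4). Of 17 genes of the xenobiotic and oxylipin response only AER, a reductase of reactive carbonyls, was measured, at -0.69, -1.20, 0.40 and -0.25. Of 23 flavonoid genes 2 were measured, DFR at 0.09 ± 0.31 and BAN at -0.15 ± 0.09. Of 18 genes for other hormone inactivation 2 were measured, the auxin-conjugating GH3.1 at -0.17 ± 0.09 and GH3.3 at 0.01 ± 0.09. None of the 13 vacuolar ABCC transporters of conjugates had a named probe.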

How the data were processed

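For every probe and array the authors deposited 1 log10 ratio. Per the submitters' processing notes, Agilent Feature Extraction 7.1 produced it, with background and dye corrections that are not stated. The log10 ratios were multiplied by 3.32 to log2, and arrays 1 and 4 were turned to nai1-1 over Col-0. Deposited values of arrays with opposite dyes correlated at -0.33 to -0.75 over named probes, and those with the same dyes at 0.50 and 0.51. Over all probes r was -0.132, -0.144, 0.132 and -0.083 for opposite dyes, and 0.444 and 0.662 for the same dyes. No further normalization was applied.

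Probe names come from the platform annotation, and symbols from the RefSeq table for TAIR10.1 by Entrez identifier (9317 of 9335 matched). The comparison was fitted on all 22575 probes with limma 3.58.1 in R 4.3.3 (genotype and dye terms, two-sided moderated test, Benjamini-Hochberg at 0.05). Single-gene adjusted p-values are from this fit unless another is named. It leaves 2 residual degrees of freedom. The fit was tested on simulated data.

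Named genes are the 5 highest and 5 lowest of each family, members past the threshold and a list with known roles. The others were chosen after their values were seen. Members and lists were chosen with earlier results of these data known. The number of arrays limits the precision.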

Additional observations from a re-analysis of the deposited data

How the results depend on the processing

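No member was called in the fit on all probes (limma, 10 members at an unadjusted p under 0.05). The count stayed at 0 except in the fit on named probes and in the fit without array 4 and without exact 0 values, which each called 1 member, GSTU25. Leaving out arrays among probes without an exact 0 was chosen after seeing the data. Leaving out single arrays gave 0 to 1 calls, and the estimate for GSTU25, fitted with a dye term, then ran from 0.52 to 0.88. The lowest adjusted p of any member under the planned choices ran from 0.0325 to 0.451. Over all probes the main count of 112 became 778 without exact 0 values, 394 without the dye term, 531 with a robust variance prior, 570 on named probes, and 0 with arrays scaled to equal spread or averaged as 2 pairs. Leaving out single arrays gave 0 on all probes, and 698, 205, 222 and 932 without exact 0 values for arrays 1 to 4 left out. The cause of these changes was not tested. UGT76C1, near 0, turned to 0.06 under equal spread and ran from -0.17 to 0.16 without single arrays. In the same fits without single arrays GSTU15 ran from -0.024 to 0.26, UGT71C1 from -0.23 to 0.029, UGT87A2 from -0.072 to 0.14, UGT78D2 from -0.042 to 0.10 and UGT76C2 from -0.26 to 0.013, none of them called. The UGT minus GST difference was -0.11 with means over genes in place of medians and ran from -0.05 to 0.03 without single arrays. No separate paired analysis was run, because both genotypes share each array and every ratio is already a pair. Dixon's test set no single array apart in 64 values (61 members, both family medians and their difference), with 3.2 such flags given by chance. Detection could not be judged from ratios, so dim probes were not removed.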
